A study of Homo sapiens with 6 samples.

Results

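TRIM24 sites found in both prostate cancer cell lines without added androgen, and not found under androgen, are described here. They are the peaks of castration-resistant LNCaP-abl cells that share at least 1 bp with a peak of vehicle-treated LNCaP cells and none with a peak of LNCaP cells given dihydrotestosterone (DHT). Members were chosen by presence and absence in the 3 deposited peak lists, so their scores in those lists and their lack of a DHT peak are descriptions and were not tested. The rule took 3048 of the 20621 LNCaP-abl peaks, or 14.8% (95% confidence interval 14.3 to 15.3, for counting error only). The number depends on the settings: 1613 members (7.82% of the LNCaP-abl peaks used) were left with a reciprocal overlap of at least 50%. It was 1924 (18.7%) in the better-scoring 50% of each list and 1176 (16.6%) in lists of equal length. Both of these settings use shorter lists, so their counts fell while their shares rose. Peaks of 400 bp around the midpoint gave 3190 members (15.5%), and 4129 vehicle peaks met the rule when vehicle peaks carried it. The rule used 2 overlaps: 36% of all LNCaP-abl peaks overlapped a vehicle peak, and 72.6% overlapped no DHT peak.

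The protein was located by ChIP-seq, in which an antibody pulls down the DNA fragments it is bound to and these are sequenced. A TRIM24 antibody was used in 3 conditions, each with 1 library. LNCaP-abl cells, a castration-resistant derivative of LNCaP, were always kept in charcoal/dextran-treated serum, which is low in steroids, and received ethanol vehicle for 4 h. LNCaP cells, which came from a lymph node metastasis of prostate cancer and depend on androgen, were starved of hormone for 72 h and then received 10 nM DHT, a potent natural androgen, or ethanol vehicle for 4 h. With no replicate in any condition, the absence of a peak under DHT cannot be told apart from the spread between libraries, and none of the differences below carries a test. The DHT list held 7105 peaks and the vehicle list 9744, and the lists give no read numbers, so the depth behind a present or absent peak is unknown.

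TRIM24 is a member of the tripartite motif family that carries a RING domain, a PHD finger and a bromodomain. The PHD finger and bromodomain together read the tail of histone H3, and the protein was first described as a coregulator of ligand-bound nuclear receptors. The androgen receptor is such a receptor: androgen binding moves it onto chromatin, and castration-resistant cells grow with little androgen. The lists hold no gene names, and no sequence or annotation of their genome build (hg19) was used here, so sites are named by position.

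In LNCaP-abl these sites were of intermediate strength. Their LNCaP-abl scores, the authors' −log10 value of the significance of each peak (of p or of q, which is not stated), had a median of 52.6, with the middle 50% of members between 25.2 and 80.6 and a range of 3.35 to 254. Sites in all 3 lists had a median of 96.8 in LNCaP-abl, sites in LNCaP-abl and DHT but not vehicle had 43.1, and sites in LNCaP-abl alone had 12.3. In all, 2268 members (74.4%, 72.8 to 76.0) reached the median of the LNCaP-abl list, 26.1. Peak widths followed the same order. Members had a median width of 774 bp, against 1000 bp for sites in all 3 lists, 669 bp for those shared with DHT only and 354 bp for those in LNCaP-abl alone.

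**Figure D1:**
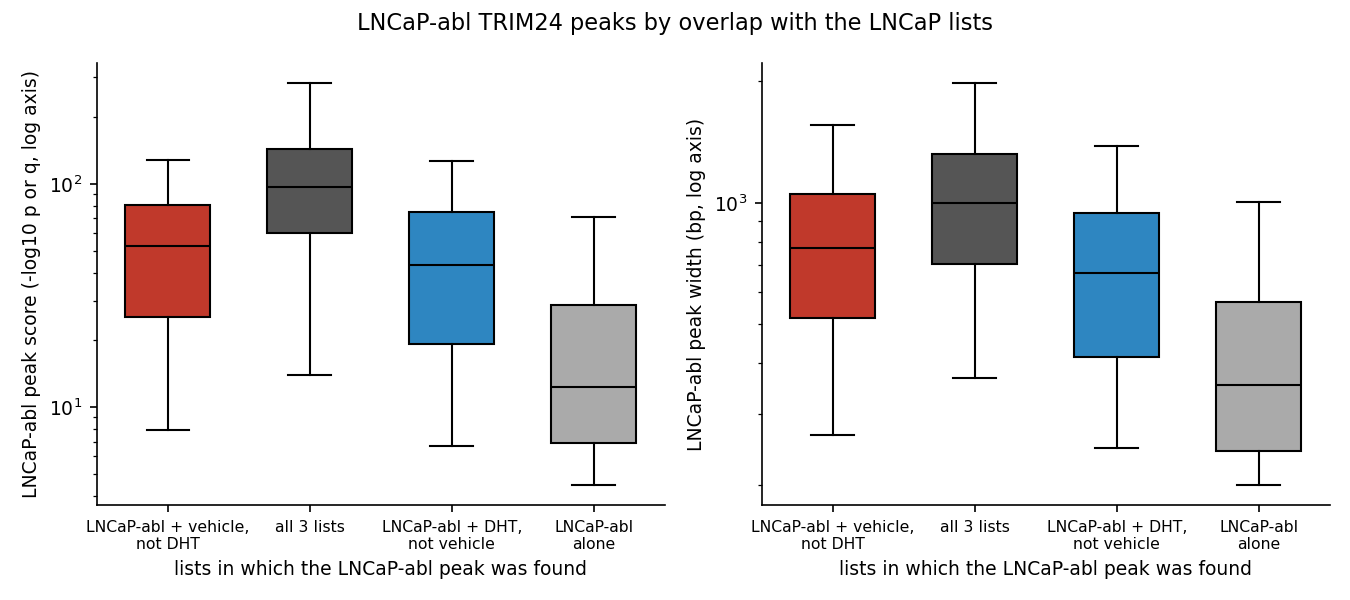
LNCaP-abl peak scores (left, log axis) and widths (right, log axis) by the lists in which the peak was found; boxes span the middle 50% of peaks, lines are medians and whiskers reach the 5th and 95th percentiles. Members, at the far left, have medians of 52.6 for score and 774 bp for width, below the sites in all 3 lists (96.8 and 1000 bp).

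Under vehicle the same sites were weak to moderate. Where a member held several vehicle peaks, the best-scoring one was used. Their median was 5.86 and their range 2.10 to 24.3, and 1251 members (41.0%, 39.3 to 42.8) reached the vehicle list median of 6.46. For sites in all 3 lists the best vehicle peak had a median of 8.68 and a highest score of 272. Members were spread over the lower part of the vehicle list. Each of its 6 lowest score deciles held between 356 and 402 members, and its highest decile, which starts at 14.7, held 37 (1.21%, 0.856 to 1.67). In 2976 members (97.6%, 97.0 to 98.1) the LNCaP-abl score was above the vehicle score, as it was in 96.5% of the sites in all 3 lists (95.9 to 97.0). Scores of different libraries are not on a common scale, because they grow with sequencing depth.

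The share of vehicle peaks without a DHT peak fell steadily with the vehicle score. Of the vehicle peaks with a LNCaP-abl peak, 73.3% of those scoring over 2 and up to 4 had no DHT peak (589 of 804, 70.1 to 76.3). The share was 53.5% (51.3 to 55.7) at scores over 6 and up to 8, and 22.1% (19.7 to 24.6) over 10 and up to 15. It came to 2.87% over 20 and up to 25 (5 of 174, 0.939 to 6.58). Above 25, 0 of the 359 peaks lacked a DHT peak, and the exact interval reaches up to 1.02%. These shares count vehicle peaks, not members. Of all 4129 vehicle peaks with a LNCaP-abl peak and no DHT peak, 847 (20.5%, 19.3 to 21.8) touched only sites in all 3 lists. No member had a vehicle score above 24.3.

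The opposite class, LNCaP-abl peaks with a DHT peak but no vehicle peak, was smaller. LNCaP-abl peaks with a DHT peak and no vehicle peak numbered 1281 of 5654 (22.7%, 21.6 to 23.8), whereas members were 3048 of the 7421 LNCaP-abl peaks with a vehicle peak (41.1%, 40.0 to 42.2). The score bins count vehicle or DHT peaks that overlap a LNCaP-abl peak, so they do not break down the 3048 or the 1281. In these bins the share of DHT peaks without a vehicle peak also fell with the score. In bins of the peak's own score, the share without a partner was 73.3% for vehicle peaks and 43.9% (39.9 to 47.8) for DHT peaks at scores over 2 and up to 4. At scores over 6 and up to 8 it was 53.5% for vehicle peaks and 34.0% (31.5 to 36.6) for DHT peaks. Over 15 and up to 20 the intervals of the 2 shares overlapped, at 8.56% for vehicle peaks (5.93 to 11.9) and 5.57% for DHT peaks (3.22 to 8.90). Over 20 and up to 25 the order turned round within overlapping intervals, at 2.87% for vehicle peaks and 3.50% for DHT peaks (1.14 to 7.97). Above 25 the counts were 0 of 359 vehicle peaks and 2 of 316 DHT peaks. Scores of different libraries are not on a common scale, so equal bins do not match peaks of equal strength. The lists behind these shares differ in length, with 7105 DHT and 9744 vehicle peaks. With the vehicle list alone shortened to its 7105 highest-scoring peaks, which by construction can only remove members and add to the opposite class, members numbered 2053 of the 5912 LNCaP-abl peaks with a vehicle peak (34.7%, 33.5 to 36.0), and the opposite class 1795 of 5654 (31.7%, 30.5 to 33.0). This setting was chosen after the data were seen, and the part of list length in the sizes of the classes was not tested.

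**Figure D2:**
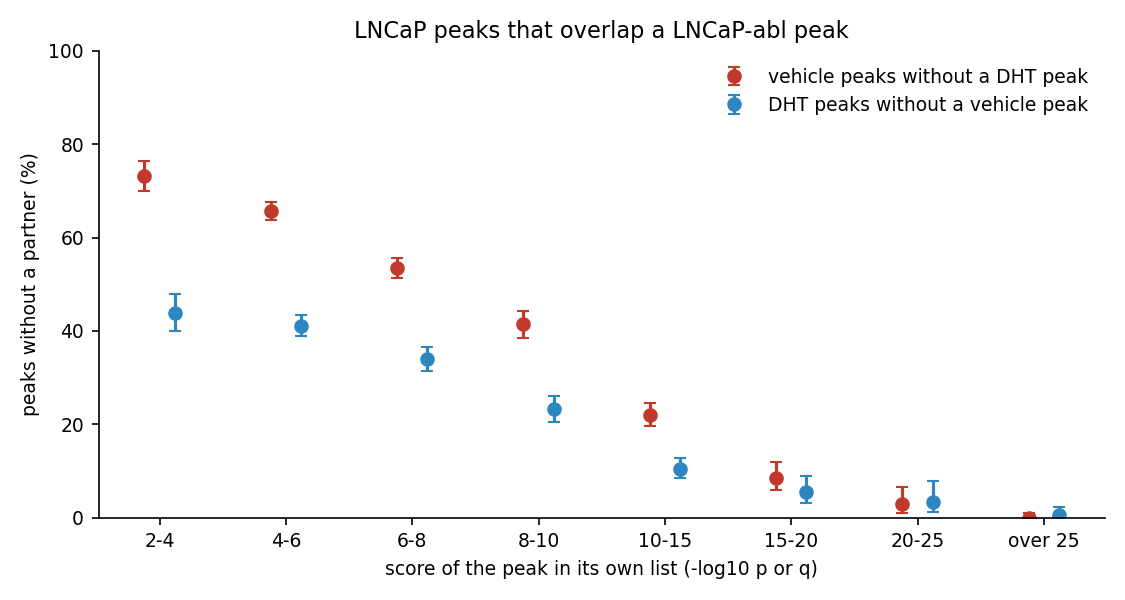
Share of LNCaP peaks without a partner in the other LNCaP list, by the score of the peak in its own list, among peaks that overlap a LNCaP-abl peak; points are shares and bars exact 95% intervals. The share for vehicle peaks is 73.3% in the lowest bin and 0% above a score of 25, and it lies above the share for DHT peaks in each bin up to a score of 20.

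Up to a vehicle score of 10, members were the more frequent the weaker the LNCaP-abl peak was. The 7421 LNCaP-abl peaks with a vehicle peak were split by LNCaP-abl score into 3 groups of equal size, with bounds at 52.6 and 100.4. At vehicle scores over 4 and up to 6, members made up 74.7% (71.8 to 77.5) of the lower group, 54.3% (50.6 to 57.9) of the middle one and 33.3% (28.0 to 39.0) of the upper one. At vehicle scores over 10 and up to 15 the shares were 31.5% (25.1 to 38.4), 28.1% (23.4 to 33.3) and 9.42% (7.16 to 12.1), and the intervals of the lower and middle groups overlapped. Above 15 they were 8.57% (12 of 140), 10.1% (10 of 99) and 2.07% (14 of 677), so that the order of the lower and middle groups turned round, within overlapping intervals. Within the LNCaP-abl list, members made up 3.44% (2.70 to 4.32) of the lowest score decile, 29.0% (27.0 to 31.0) of the eighth and 11.3% (9.92 to 12.7) of the highest. Across the 3048 members the scores in LNCaP-abl and under vehicle were only loosely related, with a Spearman correlation of 0.24. That value is a description across sites called from the same 2 libraries. It covers members only, and the rule leaves out the sites in all 3 lists, whose median scores were higher in both libraries. LNCaP-abl score and width, which come from the same peaks, had a correlation of 0.61.

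**Figure D3:**
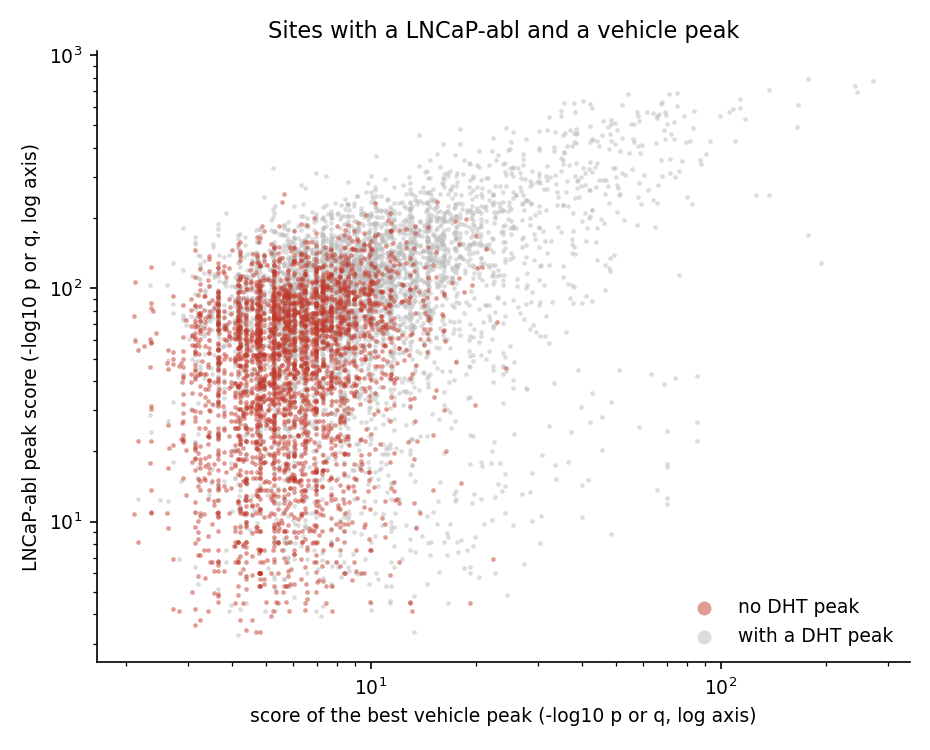
Each point is a LNCaP-abl peak with a vehicle peak, placed by the score of its best vehicle peak (horizontal, log axis) and its LNCaP-abl score (vertical, log axis); members, drawn on top, have no DHT peak. Members reach a vehicle score of 24.3 and a LNCaP-abl score of 254, and the points at the upper right all have a DHT peak.

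Members were ranked by the lower of their 2 scores, which was the vehicle score for each of the first 10. First came chr11:73053672-73054544, with scores of 45.7 in LNCaP-abl and 24.3 under vehicle. Its vehicle peak of 793 bp lay wholly within the LNCaP-abl peak of 873 bp, and the nearest DHT peak was 200.6 kb away. Next was chr1:16970966-16971454, which scored 71.5 in LNCaP-abl and 22.9 under vehicle and had a DHT peak 20.1 kb away. Another, chr17:26971795-26972589, scored 147 in LNCaP-abl and 21.3 under vehicle. All 3 sites were well above the members' vehicle median of 5.86, which follows from the ranking. The first was below the members' LNCaP-abl median of 52.6. None of them had a DHT peak within 10 kb.

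The other 7 of the first 10 had LNCaP-abl scores from 31.5 to 199. At chr7:3340385-3341486 the scores were 123 in LNCaP-abl and 20.8 under vehicle, and the nearest DHT peak lay 742 kb away, the farthest of the 10. The site chr5:112823682-112824518 scored 167 in LNCaP-abl and 19.95 under vehicle, and chr1:225840262-225841516 scored 199 in LNCaP-abl and 18.7 under vehicle. A broad site of 2208 bp, chr14:69444657-69446864, held 2 vehicle peaks and scored 122 in LNCaP-abl and 20.1 under vehicle. The remaining 3 were chr19:9785380-9786104, chr12:96587812-96589021 and chr1:112281042-112282618, with LNCaP-abl scores of 31.5, 103 and 96.3 and vehicle scores of 19.9, 19.4 and 18.5. For all 10 the nearest DHT peak was between 15.9 and 742 kb away.

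The highest LNCaP-abl scores among members belonged to other sites, and 3 of these 5 had a vehicle score above 10. The site chr6:76311179-76312494 led with 254 in LNCaP-abl, and its vehicle peak, only 200 bp wide, scored 5.66. At chr10:70166184-70167295 the scores were 233 in LNCaP-abl and 5.57 under vehicle. Both vehicle values lie close to or below the members' median, although the LNCaP-abl peaks are among the strongest 10% of their list, which begin at 116. By contrast chr11:68518526-68519198 scored 233 in LNCaP-abl and 15.5 under vehicle. The others were chr14:23425923-23426607, with 233 in LNCaP-abl and 10.3 under vehicle, and chr6:43149593-43150104, with 210 in LNCaP-abl and 11.4 under vehicle. In all, 232 members lay in the highest LNCaP-abl decile, where 12.3% (10.8 to 13.8) of the peaks with a vehicle peak lacked a DHT peak.

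The next members were picked as central by both scores, so their difference in score from these leaders follows from the choice. The 5 members nearest the middle of the members' own ranks by both scores were chr14:100751375-100752413, chr4:25863756-25864956, chr1:153949607-153950314, chr6:167369433-167370638 and chr20:32699540-32700384. They scored between 50.2 and 54.5 in LNCaP-abl and between 5.80 and 5.86 under vehicle. Their LNCaP-abl peaks were 708 to 1206 bp wide and their best vehicle peaks 202 to 369 bp. The lowest vehicle score among members was 2.10, at chr19:1008689-1009622, whose LNCaP-abl score was 10.8. Just above it, chr16:2009216-2009785 scored 76.4 in LNCaP-abl and 2.11 under vehicle, and chr8:93114981-93115823 scored 59.2 in LNCaP-abl and 2.11 under vehicle. These 3 vehicle scores sit at the floor of the vehicle list, whose lowest score is 2.02.

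The called peak was wider in LNCaP-abl than under vehicle at most members. Median widths went the same way for sites in all 3 lists and for the whole lists. Widths were compared site by site for members only. The LNCaP-abl peak was wider in 2891 of 3048 members (94.8%, 94.0 to 95.6) and more than 2 times as wide in 2035 (66.8%, 65.1 to 68.4). The vehicle peak lay wholly inside it in 2403 members (78.8%, 77.3 to 80.3). The median vehicle peak of a member was 266 bp wide, against 774 bp for the LNCaP-abl peak. For sites in all 3 lists the LNCaP-abl median was 1000 bp and the vehicle median 390 bp, and for the whole lists they were 528 bp (LNCaP-abl) and 297 bp (vehicle). At members, vehicle peaks covered a median of 39.5% of the member. Midpoints of both peaks lay a median of 108 bp apart, and for 95% of members no more than 413 bp apart. Most members held 1 vehicle peak (2796), while 243 held 2 and 9 held 3, against 826 of 4373 sites in all 3 lists (18.9%, 17.7 to 20.1) with more than 1. The site with 3 vehicle peaks and the highest lower score was chr13:100621839-100623810, with 87.0 in LNCaP-abl and 12.2 for the best vehicle peak. Next came chr17:54910476-54912568 with 115 in LNCaP-abl and 10.3 under vehicle. The widest member, chr15:82337041-82340043, spanned 3003 bp and also held 3 vehicle peaks, with scores of 162 in LNCaP-abl and 9.13 under vehicle. It was followed by chr22:39637943-39640883 at 2941 bp and chr1:933671-936402 at 2732 bp.

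Most members had no DHT peak nearby. The nearest DHT peak lay a median of 68.2 kb away, and the interquartile range ran from 21.4 to 180 kb. A DHT peak lay less than 1 kb away for 159 members (5.22%, 4.45 to 6.07), less than 10 kb away for 487 (16.0%, 14.7 to 17.3) and less than 100 kb away for 1844 (60.5%, 58.7 to 62.2). Among all 14967 LNCaP-abl peaks without a DHT peak the shares were 5.48%, 17.1% and 60.9%, so members were about as far from DHT peaks as that background. Sites in LNCaP-abl alone had 5.55% (5.14 to 5.97), 17.4% (16.7 to 18.1) and 61.0% (60.1 to 61.8). The intervals of members and of these sites overlapped at each of the 3 distances.

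**Figure D4:**
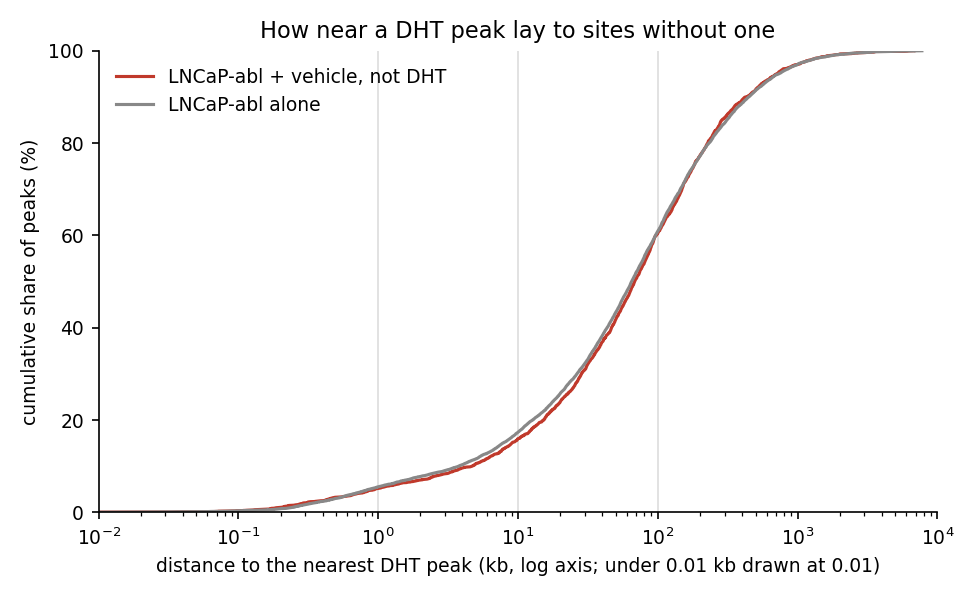
Cumulative share of LNCaP-abl peaks without a DHT peak (vertical, percent) by distance to the nearest DHT peak on the same chromosome (horizontal, kb, log axis), for members and for peaks in LNCaP-abl alone; grey lines mark 1, 10 and 100 kb. The curves run close together, with 60.5% of members and 61.0% of the LNCaP-abl-only peaks less than 100 kb from a DHT peak.

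A small number of members sat at the edge of the rule. The member nearest to a DHT peak was 3 bp from it, and 11 members were less than 100 bp away. On the other side of that edge, the smallest overlap with a DHT peak among sites in all 3 lists was 6 bp, and 24 of them overlapped by less than 100 bp. The smallest overlap of a member with a vehicle peak was 8 bp, and 87 members overlapped by less than 100 bp. Among peaks in LNCaP-abl alone, the nearest vehicle peak was 1 bp away and 76 lay less than 100 bp from one. In 13 members (0.427%, 0.227 to 0.728) a vehicle peak reached past the member and overlapped a DHT peak beside it. The clearest case was chr20:62283938-62284338, which scored 6.89 in LNCaP-abl and 22.4 under vehicle. Its vehicle peak of 707 bp shared 116 bp with the member, and a DHT peak with a score of 35.4 lay 152 bp from the member. This site has the third highest vehicle score of all members, and its vehicle peak overlapped that DHT peak. The 159 members with a DHT peak less than 1 kb away had medians of 33.0 for LNCaP-abl score and 643 bp for width, against 54.6 and 809.5 bp for the 1204 members 100 kb or more from one. The median vehicle scores of these sets were 6.02 and 5.86.

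Members were spread across the genome: of 2414 megabases with a LNCaP-abl peak, 1402 held at least 1 member and 693 held exactly 1. The 129 megabases with 5 or more held 891 members (29.2%). The megabases with the most members also held many TRIM24 peaks of other classes. The megabase with the most was chromosome 19 from 0 to 1 Mb, with 18 members among 68 LNCaP-abl peaks, 15 DHT peaks and 44 vehicle peaks. Chromosome 8 from 145 to 146 Mb had 17 members among 84 LNCaP-abl peaks, 19 DHT peaks and 43 vehicle peaks. Chromosome 1 from 1 to 2 Mb had 15 members among 81 LNCaP-abl peaks, and chromosome 19 from 1 to 2 Mb had 14 among 129. Chromosome 11 from 0 to 1 Mb had 13 among 70. The same number lay on chromosome 17 from 79 to 80 Mb (among 75) and chromosome 9 from 140 to 141 Mb (among 56). Over the whole LNCaP-abl list members were 14.8%. These megabases were ranked by member count, which also grows with the number of peaks in them.

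A member lay less than 10 kb away about as often for members as for peaks in LNCaP-abl alone. The shares were 11.3% of members (10.2 to 12.5) and 11.2% of peaks in LNCaP-abl alone (10.6 to 11.7). They were 8.35% of sites in all 3 lists (7.54 to 9.21) and 9.84% of those shared with DHT only (8.26 to 11.6). Another site of all 3 lists lay that near to 10.9% of those sites (10.0 to 11.9). That class holds 4373 sites against 3048 members, so the 10.9% and the 11.3% do not compare clustering. Joining members less than 10 kb apart gave 2704 single members, 143 pairs, 18 groups of 3 and 1 group of 4. The nearest other member lay a median of 145 kb away and the nearest LNCaP-abl peak of any kind 15.7 kb. A LNCaP-abl neighbour less than 10 kb away was present for 42.9% of members (41.1 to 44.7), 36.2% of sites in all 3 lists (34.8 to 37.7) and 48.7% of peaks in LNCaP-abl alone (47.8 to 49.6). The group of 4 spanned chr2:133028260-133038178, where 5 LNCaP-abl, 3 DHT and 7 vehicle peaks lay. Several groups of 3 held no DHT peak at all across their span. Of these the shortest were chr19:24184082-24185667 (1586 bp) and chrY:13487666-13489803 (2138 bp), each with 3 LNCaP-abl and 3 vehicle peaks. Others were chr17:77807409-77811720, with 3 LNCaP-abl and 4 vehicle peaks, and chr14:38053463-38061273, with 4 LNCaP-abl and 3 vehicle peaks. Read filters were not given, and the part of read mapping in any of these groups was not tested.

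By chromosome, members made up a like share of the LNCaP-abl list nearly everywhere. On 22 of the 23 chromosomes other than Y the 95% interval of that share included the 14.8% of the whole list. The exception was chromosome 21, with 23 of 249 peaks (9.24%, 5.95 to 13.5). Chromosome Y, left out of that count, held 6 members among 19 LNCaP-abl peaks (31.6%, 12.6 to 56.6). They were 6 of its 7 peaks with a vehicle peak (85.7%, 42.1 to 99.6), and 3 of them lay within 2138 bp. The LNCaP-abl list held no mitochondrial peak. These intervals cover counting error only, carry no correction for the 23 chromosomes and take neighbouring peaks as independent.

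Among LNCaP-abl peaks with a vehicle peak, chromosome X had the highest share without a DHT peak of the 23 chromosomes other than Y. There 73 of 115 such peaks were members (63.5%, 54.0 to 72.3), against 40.7% on the autosomes (39.5 to 41.8). Chromosome 19 had 47.4% (42.8 to 52.1), chromosome 17 had 46.0% (41.3 to 50.7) and chromosome 21 had 27.7% (18.4 to 38.6), and no other autosome had an interval apart from the 41.1% of all chromosomes. X held 2.40% of the members and 2.38% of the LNCaP-abl list, but 1.17% of the DHT list and 1.58% of the vehicle list. Its sites with a vehicle peak were also weaker than the autosomal ones, with median vehicle scores of 6.35 and 7.29 and median LNCaP-abl scores of 46.0 and 76.3. At vehicle scores over 2 and up to 6, members were 83.0% of the X sites (44 of 53, 70.2 to 91.9) and 61.8% of the autosomal ones (59.8 to 63.7). At scores over 6 and up to 10, the X share of 58.1% (25 of 43, 42.1 to 73.0) had an interval that included the autosomal 42.5%. The opposite class was also more frequent on X, where 24 of 66 peaks shared with DHT lacked a vehicle peak (36.4%, 24.9 to 49.1), against 22.7% on all chromosomes. With lists of equal length the X share was 45.0% (29.3 to 61.5) and the autosomal share 27.0%. In the better-scoring 50% of each list these shares were 51.2% (35.1 to 67.1) and 49.1%.

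**Figure D5:**
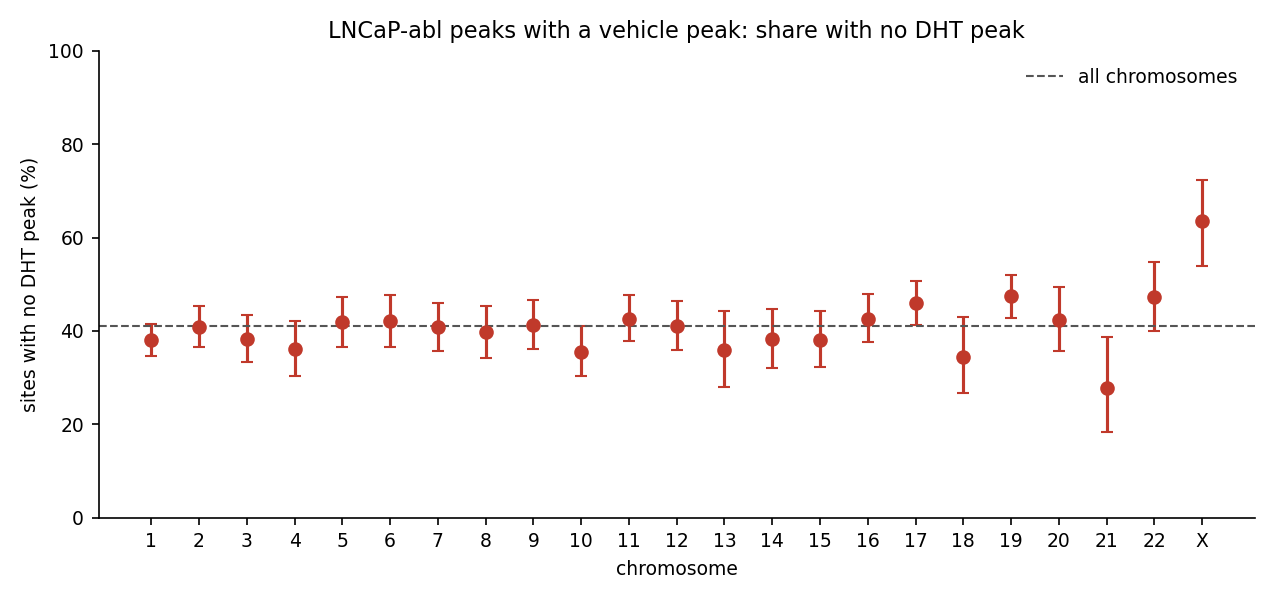
Share of LNCaP-abl peaks with a vehicle peak that have no DHT peak (vertical, percent), by chromosome without Y; points are shares, bars exact 95% intervals and the dashed line the share over all chromosomes, 41.1%. Chromosome X lies highest at 63.5% and chromosome 21 lowest at 27.7%.

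The X members with the highest LNCaP-abl scores were picked after their values were seen. The first, chrX:148586514-148587014, scored 108 in LNCaP-abl and 3.42 under vehicle. Next was chrX:148712812-148713750, with 107 in LNCaP-abl and 7.20 under vehicle, and then chrX:128656749-128657266, with 106 in LNCaP-abl and 9.25 under vehicle. The nearest DHT peak was 521, 395 and 459 kb from these sites. All 3 were strong in LNCaP-abl, above the upper quartile of 80.6 among members, and had vehicle scores on both sides of the members' median.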

How the data were processed

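TRIM24 ChIP-seq peak lists of LNCaP-abl vehicle, LNCaP DHT and LNCaP vehicle cells were used, with 1 library per condition; the 3 inputs were not used here. FastQC 0.10.0, Bowtie 0.12.7, MACS2 2.0 and hg19 are named in the submitters' processing notes; control, cutoff and read filters were not given in the sources used here. Each peak's deposited score is a −log10 value from the authors' caller, of a p-value or a q-value, which the lists leave unsaid. Lists without a header hold 5 columns.

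Overlaps of at least 1 bp were computed in Python 3.11.15 (numpy 2.4.6, pandas 2.3.3) and gave the same answer per peak as bedtools 2.31.1; in simulated lists 734 of 734 planted members were found. Shares carry exact Clopper-Pearson 95% intervals (scipy 1.17.1), which cover counting error only. Printed starts count from 1. Figures used matplotlib 3.10.9. The members, the comparisons and the score bins were chosen with earlier results of these data known. Named members follow fixed ranks: the 10 highest by the lower score, the 5 highest by each score, the 3 widest, the 3 with the lowest vehicle score, the 3 with most vehicle peaks and the 5 most central, plus the 5 megabases with most members and those tied with the last of them. Groups of members and chromosome X were singled out after their values were seen.

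Gene starts, gene lists, GC content and motifs had been planned and were left out, because they need sequence or annotation of hg19; the reference tables used GRCh38.p14 and their coordinates were not mixed in. No test between conditions was made.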

Additional observations from a re-analysis of the deposited data

How the results depend on the processing

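Requiring a reciprocal overlap of at least 50% left 1613 members (7.82% of the LNCaP-abl list), the better-scoring 50% of each list 1924 (18.7%) and lists of equal length 1176 (16.6%). The share of the LNCaP-abl list was 15.5% with peaks of 400 bp, 14.0% and 12.4% when DHT peaks less than 1 kb and 10 kb away counted as present, and 9.96% with the vehicle list alone shortened. In that order of settings (reciprocal overlap, better-scoring 50%, equal length, 400 bp, 1 kb, 10 kb, shortened vehicle list), the share of vehicle peaks with a LNCaP-abl peak but no DHT peak was 50.8%, 52.7%, 35.1%, 45.1%, 37.0%, 32.4% and 40.7%. The X share was 51.2% in the better-scoring 50% and 45.0% in lists of equal length. In the other 7 of 9 settings it stayed within its interval. In all 9 it was above the autosomal share, which ran from 27.0% to 62.9%. These settings re-cut the same peaks, and leaving out mitochondrial, Y and unplaced sequences cannot change either share. The X interval included the autosomal share with reciprocal overlap (52.0 to 85.8 against 62.9%) and in the better-scoring 50% (35.1 to 67.1 against 49.1%). Medians of members ran from 52.6 to 84.0 (LNCaP-abl score), 5.71 to 8.41 (vehicle score) and 701 to 996 bp (width) over 10 alternatives. The shortened vehicle list, the removal of members whose vehicle peak overlaps a DHT peak and all X alternatives were chosen after seeing the data. Shorter lists hold fewer peaks by construction; elsewhere the cause was not tested. With vehicle peaks as carriers, 4129 met the rule, of which 847 touched only LNCaP-abl peaks that have a DHT peak elsewhere. No paired analysis was possible because there are no replicates, and for that reason no library was left out. The windows planned for gene starts, GC content and motifs were not run. The unknown depth limits any reading of absent peaks.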
